A study of Mus musculus with 3 samples.

Results

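The genes described here encode the elastic fibre and its microfibrils: Eln, the fibrillin genes Fbn1 and Fbn2, the fibulin genes Fbln1, Fbln2 and Fbln5, the microfibril-associated genes Mfap2, Mfap4 and Mfap5, and Emilin1. They were chosen by name, and every probe whose file symbol matched was kept, which gave 16 probes for 10 genes among 25697 probes for 17849 genes. The material was dorsal dermal fibroblast progenitors of mouse embryos at embryonic day 12.5, cut out by laser capture from 5 embryos and pooled as 1 RNA before amplification. All embryos were heterozygous for a Cre allele at Engrailed1 and for the Cre reporter R26R, and there was no other genotype, age or tissue. Whether the reporter guided the cutting is not stated in the labels. The pool was read on 3 Illumina bead arrays, called arrays 1, 2 and 3, which were technical replicates, so an SD below (n = 3) is the spread between arrays and says nothing about differences between embryos.

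Elastic fibres give skin, vessels and lung their recoil. Fibrillins are secreted first and assemble into microfibrils, on which tropoelastin, the product of Eln, is laid down and then joined into an insoluble core by lysyl oxidases. Fibulins, microfibril-associated glycoproteins and EMILIN-1 bind to 1 or both of these components and help to order them, and microfibrils also hold growth factors of the TGF-beta and BMP families in the matrix.

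Of the 10 genes, 8 were detected and 2, Fbln5 and Mfap5, were not. Detected means a deposited detection p under 0.01 on all 3 arrays for at least 1 probe of the gene, and by that rule 43.6% of all genes on the array were detected. By probe, 13 of the 16 were detected, where 37.7% of all probes were. Each of the 13 had a detection p of 0 on every array, and the other 3 passed the threshold on no array, so no probe of the set lay between the states. In a bulk pool, fewer cells that express a gene and less RNA per cell cannot be told apart. The lowest normalized signal that counted as detected was 23.1 on array 1, 44.3 on array 2 and 31.2 on array 3, in arbitrary units. Brightness also depends on how well a probe binds, so a signal is read against the background of its array and is no measure of transcript amount between probes.

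**Figure D1:**
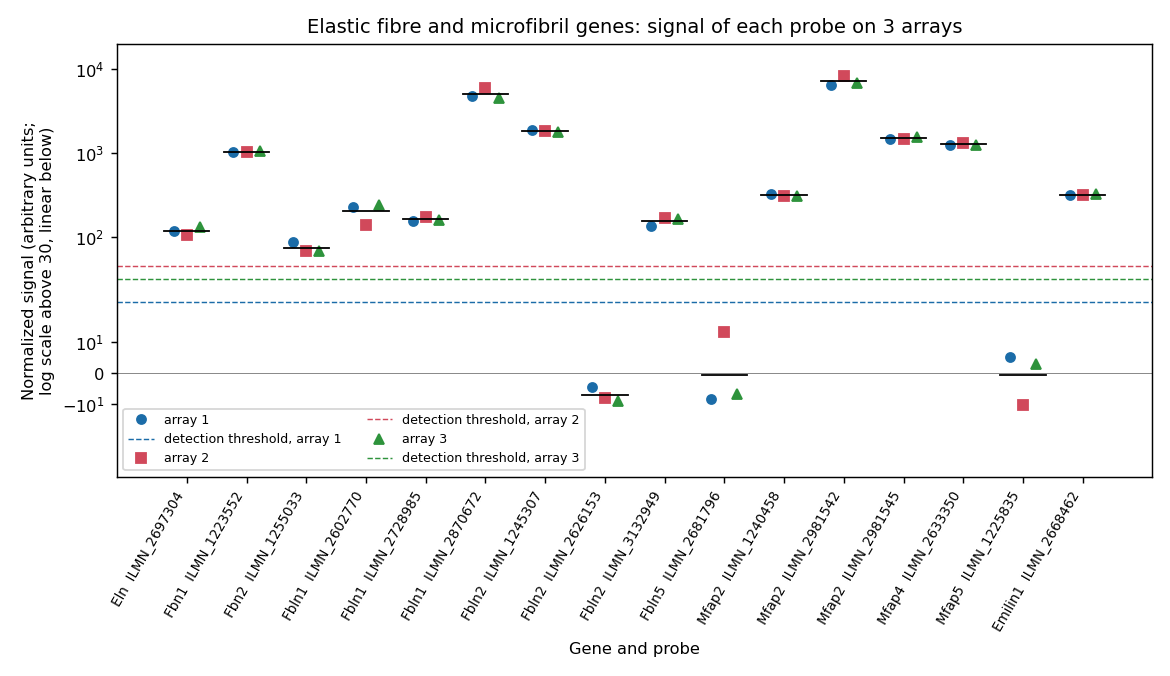
Normalized signal (arbitrary units, log scale above 30 and linear below) of the 16 probes of the 10 genes on arrays 1, 2 and 3; black bars are means and dashed lines the lowest detected signal of each array. The probes of Fbln5 and Mfap5 and 1 of 3 probes of Fbln2 lie under every threshold, and the other 13 lie above them on all arrays.

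Both fibrillin genes, which encode the backbone of the microfibril, were read above background. Fbn1, whose human counterpart is mutated in Marfan syndrome, had signals of 1026, 1024 and 1039 on arrays 1, 2 and 3, a mean of 1030 ± 8.18 (SD, n = 3). Its SD was 0.0114 on the log2 scale, the smallest of the 13 detected probes, and the 3 arrays were nearly level. Fbn2, the fibrillin expressed most in embryonic tissue, had signals of 87.0, 67.4 and 66.9, with a mean of 73.8 ± 11.5. That is 3.77, 1.52 and 2.14 times the lowest detected signal of the same array, so each array read it above background by a small margin.

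Eln, which encodes tropoelastin and was placed on chromosome 5 by the file's annotation, was detected by its only probe. Its signals were 115, 105 and 129 on arrays 1, 2 and 3, with a mean of 117 ± 12.1 (SD, n = 3). These lay 5.00, 2.37 and 4.14 times above the lowest detected signal, and its SD of 0.15 on the log2 scale was reached or passed by 43.6% of the 2932 detected probes of similar brightness, from 100 to 300. The elastin transcript was thus read on every array, by a moderate margin.

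The fibulins split into 2 genes that were read and 1 that was not. Fibulin-1, from Fbln1, lies within the elastin core and in basement membranes, and its 3 probes were all detected. Probe ILMN_2870672, which the file assigns to the Fbln1 mRNA on chromosome 15, read 4723, 5964 and 4498 on arrays 1, 2 and 3 (mean 5062 ± 790, SD, n = 3). Probe ILMN_2728985 read 153, 173 and 156, with a mean of 161 ± 11.3. Probe ILMN_2602770 read 227, 136 and 238, with a mean of 200.4 ± 55.9. The last pair carried the same target key in the file, an identifier of the transcript a probe was designed on, and differed from that of the first probe. Fbln1 was therefore read by probes to 2 target records, and the array that was highest for the first probe was the lowest for the third.

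Fibulin-2, from Fbln2, binds fibrillin-1 and tropoelastin, and the gene was detected by 2 of its 3 probes. Probe ILMN_1245307 read 1855, 1814 and 1763 on arrays 1, 2 and 3 (mean 1811 ± 46.2, SD, n = 3). Probe ILMN_3132949, assigned to transcript variant 2 on chromosome 6, read 134, 167 and 164 (mean 155 ± 18.1). Probe ILMN_2626153 stayed at background with -4.39, -8.12 and -8.90 (mean -7.14 ± 2.41), although it shared its target key with the first. Its detection p-values were 0.598, 0.718 and 0.786. Probes of 1 gene with different calls were frequent on these arrays: of genes with several probes of which at least 1 was detected, 1 of 3 in the set was detected by some probes only, against 2066 of 2976 (69.4%) over all genes.

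Fibulin-5, from Fbln5, ties tropoelastin to cells and to the crosslinking enzyme Loxl1, and mice without it form disordered elastic fibres. Its single probe gave -8.44, 13.2 and -6.58 on arrays 1, 2 and 3, a mean of -0.599 ± 12 (SD, n = 3), with detection p-values of 0.823, 0.188 and 0.667. Before normalization the signals were 72.6, 79.8 and 81.5, where the lowest detected ones were 119, 94.9 and 136. All 3 values thus lay under the threshold of their array. With 1 probe, a transcript that this probe reads poorly and a transcript under the detection limit cannot be told apart.

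The microfibril-associated glycoproteins 1 and 2, from Mfap2 and Mfap5, are related small proteins that bind fibrillin, and the arrays gave them opposite calls. Mfap2, on chromosome 4 in the file's annotation, was detected by all 3 of its probes, which share 1 target key. Probe ILMN_2981542 read 6520, 8247 and 6770 on arrays 1, 2 and 3 (mean 7179 ± 933, SD, n = 3). Probe ILMN_2981545 read 1483, 1452 and 1565 (mean 1500 ± 58.2). Probe ILMN_1240458 read 327, 303 and 304 (mean 311 ± 13.6). All 9 readings of Mfap2 were at least 6.82 times the lowest detected signal of their array.

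Mfap5 had a single probe, with 5.16, -10.3 and 3.10 on arrays 1, 2 and 3 and a mean of -0.691 ± 8.41 (SD, n = 3). Its detection p-values were 0.170, 0.782 and 0.228, and its non-normalized signals were 92.8, 68.4 and 95.3. None of them reached the lowest detected signal. Mfap2 had 3 probes and Mfap5 had 1, so a call rested on fewer readings for Mfap5.

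Mfap4, which despite its name is a fibrinogen-like protein unrelated to Mfap2 and binds both tropoelastin and fibrillin, read 1243, 1298 and 1250 on arrays 1, 2 and 3. Its mean was 1264 ± 29.96 (SD, n = 3), and the arrays differed by an SD of 0.034 on the log2 scale. Emilin1 encodes a glycoprotein found where elastin meets the microfibrils. It read 314, 313 and 325, with a mean of 317 ± 6.37 and an SD of 0.0288 on the log2 scale. Both genes were nearly level across the arrays, like Fbn1.

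The spread between arrays was set beside that of the whole array. The median SD of log2 normalized signal was 0.0998 over the 13 detected probes and 0.109 over all 9693 detected probes. In the set it was 0.0385 without array 1, 0.0499 without array 2 and 0.0945 without array 3. These are medians of SDs over 2 arrays, which cannot be compared directly with those over 3 arrays, and no value over all detected probes is set beside them. Among the 13 the SD over 3 arrays ran from 0.0114 for Fbn1 to 0.447 for Fbln1 probe ILMN_2602770. The median absolute log2 difference between arrays 1 and 3 was 0.0705 in the set and 0.0898 over all detected probes, and between arrays 1 and 2 it was 0.134 in the set and 0.146 over all detected probes. Between arrays 2 and 3 it was 0.0545 in the set and 0.149 over all detected probes. The set of 13 probes was thus lower than all detected probes for each pair of arrays, by a margin that differed between pairs.

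Bright probes read higher on array 2 than on the other arrays, and this touched the brightest probes of the set. Among the 605 detected probes with a mean of at least 3000 on arrays 1 and 3, the median log2 ratio of array 2 over the geometric mean of arrays 1 and 3 was 0.19, and 90.1% were higher on array 2. The 2 probes of the set in this range, Fbln1 ILMN_2870672 with 0.37 and Mfap2 ILMN_2981542 with 0.31, went the same way and lay within the central 95% of that range (-0.08 to 0.72). Fbln1 ILMN_2602770 was the exception at lower signal, with -0.77, where 0.75% of the 2932 probes between 100 and 300 were as low or lower. Its partner of the same target key stood at 0.17, a difference of 0.94 that 1.59% of 1887 same-target pairs of detected probes reached. The 10 remaining detected probes of the set, this partner among them, had ratios between -0.22 and 0.17. The probes of Fbln1 thus ran in opposite directions on array 2 although the arrays read 1 RNA pool, and the cause was not tested.

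**Figure D2:**
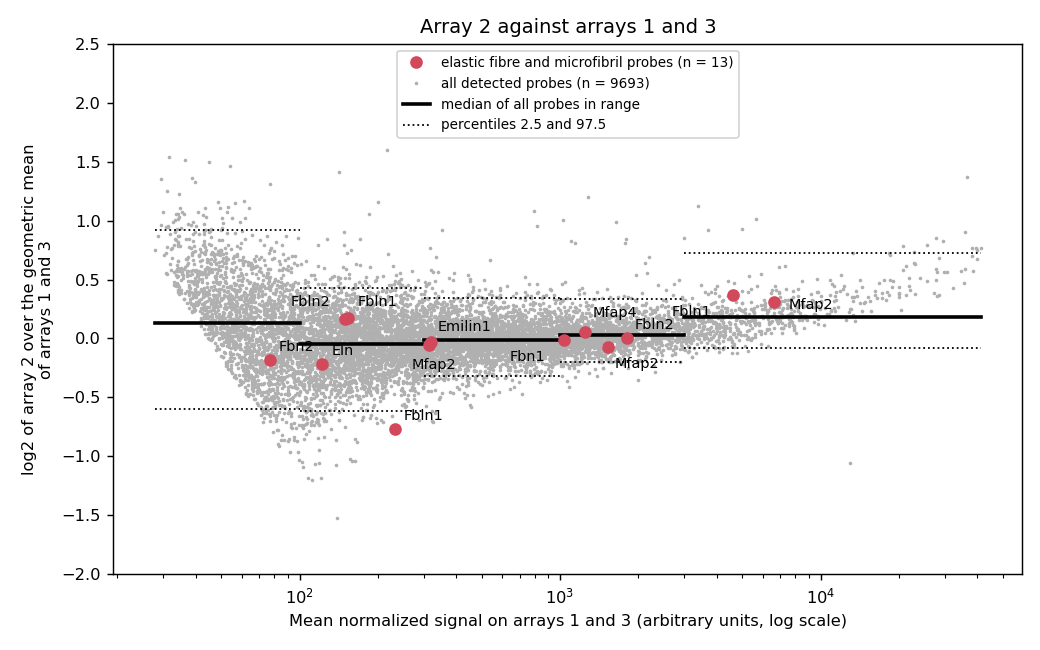
The log2 ratio of array 2 over the geometric mean of arrays 1 and 3 against the mean normalized signal on arrays 1 and 3 (arbitrary units, log scale), for the 13 detected probes of the set (red) and all 9693 detected probes (grey), with the median and the percentiles 2.5 and 97.5 in ranges of signal. The 2 brightest probes of the set, of Fbln1 and Mfap2, lie above 0 with most probes of their range, and 1 other Fbln1 probe lies at -0.77, below the dotted line of its range.

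Genes that act with these proteins, or only share the Mfap name, were read in part. Over 11 lists of such genes, 58 had a probe and 33 of them (56.9%) were detected, against 43.6% of all genes. Of the genes listed for crosslinking, 4 of 6 were detected, namely 3 of 5 lysyl oxidases and the copper pump gene Atp7a. Lox, the founding lysyl oxidase, had signals of 1085, 978 and 1047 on arrays 1, 2 and 3 (mean 1036 ± 54.4, SD, n = 3). Loxl1, which acts on elastin in particular, had 1030, 1136 and 1110 (mean 1092 ± 54.7). Loxl2 lay near background at 67.1 ± 11.5, Loxl3 (0.405 ± 2.23) and Loxl4 (-3.76 ± 3.15) were not detected, and Atp7a, whose product supplies these enzymes with copper, stood at 261 ± 36.1.

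Of the other fibulins, 1 of 4 was detected. Efemp2 encodes fibulin-4, which brings lysyl oxidase to tropoelastin and without which mice form no normal elastic fibres. It read 1204, 1634 and 1220 on arrays 1, 2 and 3 (mean 1352 ± 244, SD, n = 3), with array 2 the highest. Efemp1 (14.9 ± 5.71), Fbln7 (1.499 ± 7.86) and Hmcn1 (23.5 ± 4.19) were not detected. Emilin2 (677 ± 55.7) and the endothelial gene Mmrn2 (228 ± 14.1), relatives of Emilin1, were detected and Emilin3 (5.51 ± 13.8) was not.

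Latent TGF-beta binding proteins, which share the fibrillin repeat structure and dock on microfibrils, were detected at 3 of 4 genes, each by some of its probes only. Ltbp1 was read by 1 of 6 probes, at 622 ± 35.3 (SD, n = 3), Ltbp3 by 1 of 2 at 438 ± 32.4, and Ltbp4 by 2 of 3, the brighter at 195 ± 21.8. Ltbp2 was not detected by its 1 probe (8.37 ± 12.9). Growth factors that microfibrils hold were detected at 5 of 8, among them Tgfb2 at 1613 ± 61.9 and Tgfb3 at 418 ± 23.4, while Tgfb1 (13.9 ± 8.67) was not. Gdf5 was near background at 65.9 ± 15.3. The calls of Bmp4 and Bmp7 were positive, and those of Bmp2 and Bmp5 negative.

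Genes for the elastin receptor complex, folding and processing were detected at 4 of 5. Fkbp10, whose product is a chaperone of collagen and tropoelastin, stood at 568 ± 9.08 (SD, n = 3). Furin, the protease that trims the end of profibrillin, stood at 708 ± 39.3 by 1 of 3 probes. Glb1, whose alternative splice product in human cells is the elastin-binding protein, stood at 398 ± 25.2 and its partner Neu1 at 255 ± 5.27, whereas none of the 4 probes of Ctsa was detected, the brightest by mean at 18.2 ± 15.9. The probe of Glb1 was not matched to a splice form. Of the ADAMTS and ADAMTS-like genes, 1 of 5 was detected: Thsd4, whose product promotes microfibril assembly, at 758 ± 10.3 by the brighter of 2 detected probes out of 3. Adamtsl2, Adamtsl4, Adamtsl5 and Adamts17 had means between 2.84 and 10.2 and were not detected.

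Matrix partners of microfibrils were detected at 4 of 5 genes: Vcan (192 ± 14.2), Hspg2 (653 ± 23.2), Bgn (2787 ± 341) and Dcn by both probes, the brighter at 3528 ± 229 (SD, n = 3), but not Tnxb, whose 4 probes had means between 0.681 and 26.5. Of the integrins that bind fibrillin or fibulin 2 of 6 were detected, Itgb5 at 1539 ± 81.5 and Itgb1 by both probes, the brighter at 190 ± 36.8. Their partner Itgav (15.1 ± 11.0) was not, nor were Itga5, Itgb3 and Itgb6. Proteases able to cut elastin were detected at 5 of 8. These were Mmp2 (5836 ± 145), Mmp14 (1998 ± 45.1), Ctsk (930 ± 30.6), Mmp9 (115 ± 12.6) and Ctss (73.4 ± 8.36). The macrophage elastase gene Mmp12 was not detected (8.97 ± 8.40), and neither were Mmp7 and Ctsl.

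Of the other genes that carry the Mfap name, 2 of 4 were detected. Mfap3 was read by both of its probes, the brighter at 794 ± 10.6 (SD, n = 3). Mfap1b, whose product belongs to the splicing machinery, stood at 854 ± 33.2, while the probe of its near-identical copy Mfap1a gave -2.66 ± 4.02. A probe for 1 copy may also bind transcripts of the other, so which of them was read is uncertain.

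**Figure D3:**
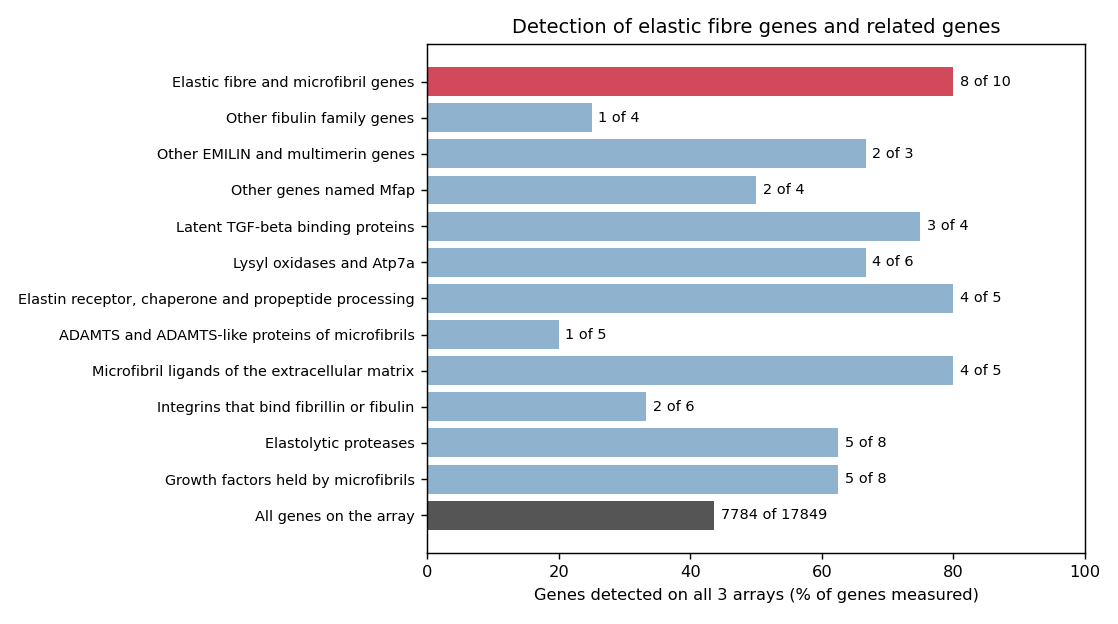
Share of measured genes detected on all 3 arrays (%), for the 10 elastic fibre and microfibril genes, 11 lists of related genes and all genes on the array, with counts beside the bars. The set stands at 8 of 10, the related lists between 1 of 5 and 4 of 5, and all genes at 7784 of 17849.

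Markers of the labelled material and of other cell types were also read. Markers of dermal fibroblast progenitors were detected at 5 of 6 genes, Twist2, Twist1, Pdgfra, Prrx1 and Col3a1, but not Dpt. Smooth muscle and pericyte markers were detected at 3 of 6: Acta2 (brightest probe 14639 ± 2200, SD, n = 3), Tagln (74.6 ± 13.5) and Pdgfrb (182 ± 15.8). The other markers of that list, Myh11 (2.17 ± 8.14), Cnn1 (3.33 ± 6.46) and Rgs5 (1.79 ± 25.8), were not detected. Cartilage markers were detected at 5 of 5 (Sox9, Col2a1, Acan, Matn1 and Col9a2). Endothelial markers gave 4 of 5 (not Kdr), epidermal 5 of 5 and skeletal muscle 3 of 5 (not Myod1 and Myf5). Mesothelial markers gave 2 of 3 (not Msln) and erythroid 4 of 4. Macrophage markers gave 3 of 4 (not Ptprc) and neuronal 3 of 4 (not Tubb3). By the same rule 43.6% of all genes were detected, and each marker list is short. With 1 pool, the part of these cells in the elastic fibre signals was not tested.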

How the data were processed

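One RNA pool was read on 3 bead arrays. The authors deposited a non-normalized and a normalized bead intensity per probe, and a detection p-value, as the file headers name them. How the authors normalized, and with what software, is not given in the sources used here. Each deposited normalized intensity equalled a straight line of the non-normalized one on each array (slopes 0.672, 2.07 and 0.699), on a linear scale, with values below 0 at 6918, 6172 and 7122 probes. The series value table held the same numbers. Probes per array detected at p under 0.01 numbered 11542, 10022 and 10692. The number of arrays limits the precision.

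From these, calls, means, SDs and log2 ratios were computed with Python 3.11.15, numpy 2.4.6 and pandas 2.3.3. Of 25697 probes, 17548 matched a RefSeq symbol (GRCm38.p6) directly, 1320 by the file's definition, 5855 by a synonym and 3 in another case, and 971 kept the file's name. Related genes with no probe were not analysed here. Related genes are valued by their brightest probe, and every gene of the lists could be named. The members, lists and thresholds were chosen with earlier results of these data known. With 1 group there was no comparison of conditions and no test. On simulated signals of 9693 probes with an SD of 0.1 on the log2 scale, the root mean square of the computed SDs was 0.0992. Of 200 probes planted as detected, 200 were called. These simulations check the code and say nothing about the calls on the real arrays. Alternatives covered other detection thresholds and numbers of arrays, every probe or only the brightest, quantile normalization, and leaving out each array.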

Additional observations from a re-analysis of the deposited data

How the results depend on the processing

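The count of 8 detected genes among 10 held at detection p thresholds of 0.05 and 0.001, on at least 2 or at least 1 array, by the brightest probe only and without any 1 array, and it was 7 when every probe had to be detected, since Fbln2 has a probe at background. Over all genes these rules gave 32% with every probe required, 39.7% at 0.001 and up to 51.7% on at least 1 array. Fbln5 and Mfap5 were detected under none of these alternatives. The 13 detected probes numbered 13 under each alternative run on probes. The related genes detected ran from 28 to 37, against 33 as reported. Of these genes, 11 of 58 changed call under at least 1 alternative: Loxl2 and Gdf5 were lost at 0.001, Ltbp1, Ltbp3, Ltbp4, Furin and Thsd4 with every probe required, and Hmcn1, Itga5, Itgb6 and Ctsl were gained under looser rules, Ctsl also without array 2. The median SD of log2 signal over the 13 probes was 0.0998 as reported and 0.0751 after quantile normalization. It was 0.123 for non-normalized signal divided, on each array, by the median of all detected probes. Leaving out 1 array gave 0.0385 to 0.0945, from SDs over 2 arrays, with 0.0385 without array 1 and 0.0499 without array 2. After quantile normalization, the log2 ratio of array 2 over arrays 1 and 3 was 0.08 for Mfap2 ILMN_2981542, 0.20 for Fbln1 ILMN_2870672 and -0.73 for Fbln1 ILMN_2602770. The means of all 16 probes stayed within 1 SD under that normalization. No paired analysis was possible because the series holds 1 group. Signal over background limits what can be said of Fbn2, and no call of Fbln5 or Mfap5 shows that the transcript is absent.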
